A study of Mus musculus with 6 samples.

Results

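Fc receptors are the cell surface proteins that bind the constant part of antibodies, and their genes were followed here across the CD45+ cells of B16-F10 melanomas. The 8 genes Fcer1g, Fcgr1, Fcgr3, Fcgr4, Fcgr2b, Fcgrt, Fcer2a and Fcmr were chosen by symbol from the 32285 genes of the deposited count matrices, and all 8 had unique molecular identifier (UMI) counts in each of the 6 samples. B16-F10 is an established melanoma line that was grown in female C57BL/6 mice of 6 to 10 weeks. All mice received an antibody against PD-1 (clone 29F.1A12, 150 µg, 3 times a week from day 7), and each day from day 6 either the CoREST inhibitor corin (200 µg, the αPD-1 + corin group, 3 samples) or its vehicle, DMSO in PBS (the αPD-1 group, 3 samples). Tumor cells were frozen, thawed, freed of dead cells and enriched on CD45 beads before 5′ droplet sequencing. There were 10 mice in each treatment group, but the labels do not tie mice to samples, so p-values measure the spread between these samples and that spread may be technical.

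The activating Fcγ receptors Fcgr1 (FcγRI), Fcgr3 (FcγRIII) and Fcgr4 (FcγRIV) bind IgG and signal through the common γ chain Fcer1g, which carries an ITAM motif and which other receptors also use. Fcgr2b (FcγRIIB) binds IgG as well but carries an inhibitory motif, and it is the Fcγ receptor that B cells use. Fcgrt (FcRn) works inside the cell, where it returns IgG from endosomes to the surface. Fcer2a (CD23) binds IgE and Fcmr binds IgM, and both are known from B cells. In tumors, macrophages and other myeloid cells use the Fcγ receptors to take up antibody-coated cells.

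In the GRCm39 annotation the members lie on chromosomes 1, 3, 7 and 8. Fcgr2b (chr1:170786186-170804177, minus strand), Fcgr4 (chr1:170846466-170857330, plus strand), Fcgr3 (chr1:170878738-170893549, minus strand) and Fcer1g (chr1:171057141-171062219, minus strand) are neighbours, and Fcmr (chr1:130793406-130808528, plus strand) lies elsewhere on the same chromosome. Fcgr1 is at chr3:96190225-96201338, Fcgrt at chr7:44742412-44756819 and Fcer2a at chr8:3731737-3744183, all on the minus strand. Transcripts of Fcgr3 and Fcgr2b share an identical stretch of 129 bases, so that 64 of the 1456 windows of 90 bases (the length of the sequenced read) in Fcgr3 also occur in Fcgr2b. Counts of this pair are uncertain to that extent.

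Because the activating receptors share the myeloid classes described below, bases near their RefSeq start sites are shown. RefSeq promoter windows (250 bases before to 50 after each start site, matched to GRCm39) were searched on both strands for GAGGAA, the core bound by PU.1, the ETS factor of myeloid and B cells, and for TTCNNNGAA, the palindrome that STAT factors bind. Each sequence is given 5′ to 3′ on the gene's own strand, with the match in capitals (TTCCTC is GAGGAA read on the other strand).
Fcgr1 (chr3:96201323-96201352, minus): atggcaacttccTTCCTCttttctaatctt
Fcgr3 (chr1:170886964-170886993, minus): agagagtccatttccTTCCTCtttttgtag
Fcgr4 (chr1:170846461-170846490, plus): aaggctatttacTTCCTCtcttctagtcaa
Fcmr (chr1:130793466-130793495, plus): acagattatcatTTCCTCattttaagtcct
Fcgr1 (chr3:96201375-96201404, minus, the STAT motif): aaggatgtatTTCCCAGAAaagggaacagt
Counted from the start site of the RefSeq promoter entry, the GAGGAA match began 55, 15, 22 and 36 bases upstream in Fcgr1, Fcgr3, Fcgr4 and Fcmr, in that order, and the TTCNNNGAA match 109 bases upstream in Fcgr1. Fcgr3 has another entry, from which the same match began 6 bases upstream. The gene bounds given above cover all annotated transcripts, and the Fcgr3, Fcgr4 and Fcmr matches lie inside them. In a table of 32851 promoter windows, 28.3% held GAGGAA and 8.3% held TTCNNNGAA. No GAGGAA was in the windows of Fcgr2b, Fcer1g, Fcgrt and Fcer2a. A match is a run of letters and not a measured site.

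The 6 libraries held 52899 barcodes, of which 28865 cells were kept. They fell into 9163 macrophages, 1288 monocytes, 2691 dendritic cells, 1412 neutrophils, 479 NK cells, 2662 B cells, 3495 T cells and 407 plasma cells, beside 2886 cells in mixed clusters, 1348 in unnamed ones and 3034 non-immune cells. Each class was named from marker genes other than the Fc receptor genes, which were also left out of the clustering. Any pair of libraries shared 10 to 32 cell barcodes, at most 0.457% of the smaller library. The groups differed in their cells: B cells made up 21.7% of immune cells in the αPD-1 group and 0.78% in the αPD-1 + corin group, neutrophils 0.255 to 0.385% and 5.37, 27 and 1.81%, and macrophages 20.6% ± 3.1 and 43.6% ± 19.1 (SD, n = 3 samples each). The third αPD-1 + corin sample stood apart from the first and second in the macrophage values below and held 1195 T cells against 160 and 304, so results that rest on it are also given without it.

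Levels are given as CPM, the UMIs of a gene over all UMIs of its class in that sample, on the usual CPM scale. They were compared across classes as a description, with no test, since the classes come from the same libraries. Where the groups are said to overlap or not, this too is a description, and its share over all genes was not counted. Fcer1g was highest in monocytes and macrophages. Over the 6 samples its level was 2739 ± 139 CPM in monocytes (SD, n = 6) and 2233 ± 246 CPM in macrophages, and these ranges overlapped. Dendritic cells (1554 ± 231 CPM), neutrophils (1416 ± 375 CPM) and NK cells (1081 ± 144 CPM) followed, each overlapping the next, and the lowest macrophage sample (1909.6 CPM) lay above the highest dendritic cell sample (1859 CPM) but not above the highest neutrophil sample (1914 CPM). NK cells use the γ chain with CD16 and with natural cytotoxicity receptors, and their lowest sample (861 CPM) lay above the highest T cell sample (233 CPM). The NK cells were 2 clusters. That led by Gzma and Klra8 (284 cells) held 1410 CPM pooled over samples. That led by Xcl1 and Ccl1 (195 cells), which also met 6 of the 8 T cell markers, held 772 CPM. T cells held 189 ± 35.6 CPM and B cells 77.2 ± 55.5 CPM.

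Shares of cells with a UMI were also compared. To set depth aside, each cell was thinned to 1000 UMIs and the few shallower cells (at most 43 per sample in the named classes shown) were left out. A Fcer1g UMI was then found in 90.1 to 96.2% of monocytes per sample, 68.8 to 86.7% of macrophages, 56.1 to 70.5% of NK cells, 6.9 to 12.4% of T cells and 0 to 5.04% of B cells. Without thinning, the means of the αPD-1 group were 98.9, 86.2, 84.3, 16.4 and 7.11% for these classes in the same order. B cells are not known to use the γ chain, so their share is the one to set the others against. T cells were not of one level: the T cell cluster led by Klra7 and Klra6 (295 cells) held 392, 391 and 577 CPM of Fcer1g with αPD-1 alone and 833, 627 and 453 CPM with added corin, and the cluster led by Dapl1 and Lef1 held 44, 64.4 and 43.2 CPM with αPD-1 alone.

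Fcgr1, the high-affinity IgG receptor, was highest in monocytes and macrophages. Monocytes held 309, 371 and 361 CPM with αPD-1 alone and 446, 403 and 348 CPM with added corin, and macrophages held 209, 226 and 310 CPM against 413, 429 and 241 CPM. The order of the means over the 6 samples was monocytes (373 ± 47.1 CPM), macrophages (305 ± 96.4), dendritic cells (168 ± 54.7), neutrophils (59.6 ± 51.9), plasma cells (16.3 ± 16.5), T cells (12.7 ± 2.54), B cells (5.36 ± 6.29) and NK cells (5.27 ± 9.19), and every neighbour in this order overlapped the next. Plasma cells numbered only 6, 4 and 2 in the αPD-1 + corin samples, so their place here and in the orders below is uncertain. In the αPD-1 + corin B cells no Fcgr1 UMI was found in any sample, where a count of 0 allows up to 3 UMIs per sample.

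Fcgr3, the low-affinity activating receptor that NK cells also carry, was found across the myeloid classes. Monocytes (490.5 ± 54.4 CPM), macrophages (443 ± 106 CPM), neutrophils (364 ± 158 CPM) and dendritic cells (232 ± 63 CPM) overlapped one with the next, and the lowest dendritic cell sample (145 CPM) lay above the highest NK cell sample (93.7 CPM). NK cells held 59.4, 49.7 and 93.7 CPM with αPD-1 alone and 31.5, 79.5 and 77.5 CPM with added corin, from 3 to 34 UMIs per sample. The NK cell mean of 65.2 ± 22.7 CPM stood above the T cell mean of 24.5 ± 7.1 CPM, but the lowest NK sample (31.5 CPM) was within the T cell range of 17.8 to 34.3 CPM. Pooled over samples, the Gzma/Klra8 cluster of NK cells held 100 CPM, and the Xcl1/Ccl1 cluster with T cell markers held 38 CPM. At 1000 UMIs per cell, a Fcgr3 UMI was found in 0 to 7.84% of NK cells and in 0.842 to 2.63% of T cells, at median depths of 1951 to 2963 and 1676.5 to 3443.5 UMIs before thinning.

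Fcgr4, which binds IgG2 subclasses with intermediate affinity, was led by macrophages. They held 176, 290 and 148 CPM with αPD-1 alone and 209, 259 and 289 CPM with added corin, and these ranges overlapped. The means over the 6 samples fell in the order macrophages (228 ± 59.9 CPM), monocytes (169 ± 33.9), dendritic cells (143 ± 58.1) and neutrophils (97 ± 44.6), with overlap at each step, and were 22.7 ± 43 CPM in plasma cells, 10.1 ± 4.6 CPM in T cells, 8.23 ± 12 CPM in NK cells and 8.12 ± 7.29 CPM in B cells. Plasma cells ranged from 0 to 110 CPM in the αPD-1 + corin samples, and their αPD-1 mean was 8.68 CPM.

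Fcgr2b was the only Fcγ receptor with a B cell level above the T cell level in all 6 samples. B cells held 151, 116 and 145 CPM with αPD-1 alone and 49.3, 175 and 210 CPM with added corin, where these levels rested on 3, 15 and 4 UMIs, and T cells held 18.3 to 40.5 CPM. Macrophages (558 ± 283 CPM), monocytes (394 ± 70.8), dendritic cells (322 ± 108), neutrophils (145 ± 81), B cells (141 ± 54.8) and plasma cells (124 ± 95.4) each overlapped the next. NK cells (29 ± 17.1 CPM) and T cells (26.7 ± 10.3 CPM) lay below the lowest plasma cell sample. The plot of levels by class shows these orders sample by sample.

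**Figure D1:**
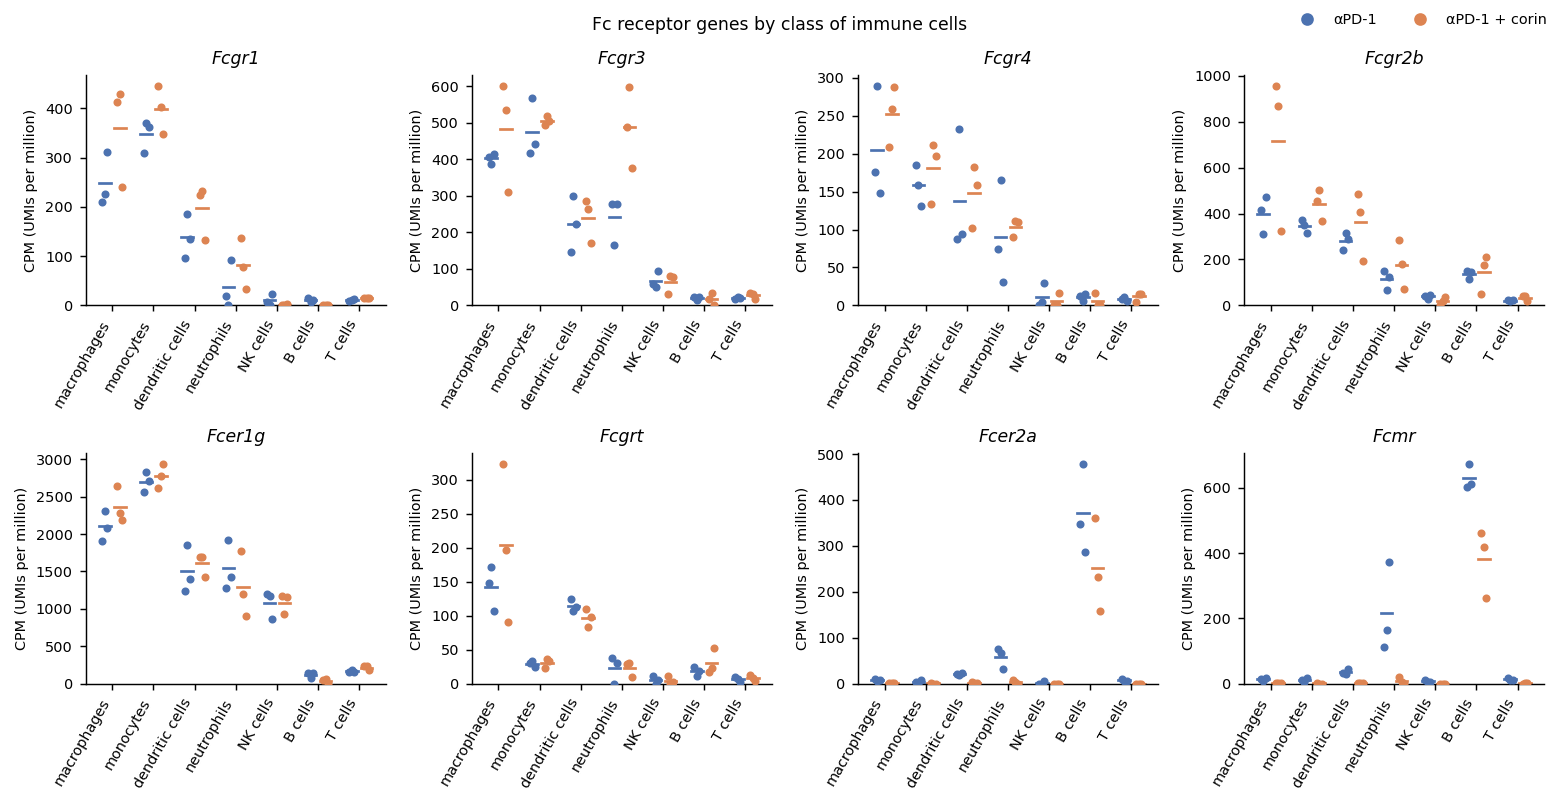
Level of each of the 8 Fc receptor genes in CPM (y axis) in 7 classes of immune cells (x axis). Each point is a sample and each bar the group mean (3 αPD-1 samples in blue, 3 αPD-1 + corin samples in orange). Fcer1g, Fcgr1, Fcgr3, Fcgr4 and Fcgr2b sit in the myeloid classes, with Fcer1g also in NK cells and Fcgr2b also in B cells. Fcer2a and Fcmr sit in B cells.

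Fcgrt, the neonatal Fc receptor, had a narrower place among immune cells. Macrophages held 149, 172 and 108 CPM with αPD-1 alone and 324, 197 and 91.4 CPM with added corin. Dendritic cells held 125, 107 and 113 CPM against 110, 83.9 and 97.6 CPM, which overlapped the macrophage range. The lowest dendritic cell sample (83.9 CPM) was above the highest monocyte sample (35.9 CPM), the only gap in the order, and monocytes (30 ± 5.34 CPM), B cells (24.4 ± 14.5 CPM) and neutrophils (22.7 ± 14.6 CPM) followed. T cells (7.2 ± 3.66 CPM) and NK cells (5.09 ± 5.21 CPM) were lowest. Fibroblast-like cells, which are not immune cells, held 102 ± 36.5 CPM and endothelial-like cells 101 ± 35.3 CPM, while the level of Fcgr3 in these was 6.32 ± 4.94 and 16 ± 16.2 CPM.

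Dendritic cells differed among themselves. Fcgr1 was at 267 ± 68.1 CPM in cDC2-like cells, 46.1 ± 29.7 CPM in cDC1-like cells and 38.1 ± 32.1 CPM in pDC-like cells (SD, n = 6). Fcgr2b was at 472 ± 114, 147 ± 80.3 and 97.2 ± 44.7 CPM in these, and Fcer1g at 2295 ± 317, 374 ± 83.5 and 1111 ± 196 CPM. Plasmacytoid cells, which pDC-like cells are named for, use the γ chain with activating receptors of their own. Fcgrt showed no such spread, at 101 ± 17.2, 110 ± 23.5 and 126 ± 50.9 CPM. The cDC2-like cluster also met 5 of the macrophage markers, and the C1q genes stood at 35.1 and 34.1% of the macrophage level in the dendritic cells of the αPD-1 and αPD-1 + corin groups, whose part in these levels was not tested.

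Fcer2a and Fcmr were B cell genes. Fcer2a in B cells was 348, 479 and 286 CPM with αPD-1 alone and 362, 233 and 157 CPM with added corin, the last from 3 UMIs in 11 cells. Fcmr in B cells was 603, 673 and 612 CPM against 460, 420 and 262 CPM, from 28, 36 and 5 UMIs in the αPD-1 + corin samples. The Fcmr ranges of the groups did not overlap, and those of Fcer2a did. At 1000 UMIs per cell, Fcmr was found in 44.1 to 44.6% of αPD-1 B cells and 18.2 to 37% of αPD-1 + corin B cells. Outside B cells, the highest mean of Fcer2a was 30.4 ± 32.8 CPM, in neutrophils, and the αPD-1 neutrophil sums, of 9 to 16 cells, held only 1 to 4 Fcer2a UMIs each.

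T cells were also compared with macrophages, sample by sample. T cell levels of Fcgr1, Fcgr3, Fcgr4, Fcgr2b and Fcgrt were 4.1 to 5.19% of the macrophage level of the same sample on average in the αPD-1 group and 3.97 to 5.82% in the αPD-1 + corin group. The complement genes C1qa, C1qb and C1qc together, which mark macrophages, were at 2.32 and 3.62%. Fcer1g stood higher, at 7.87 and 9.03%. Of T cells with a UMI of an activating receptor, 65 to 100% also had a Fcer1g UMI, against 10.3 to 23.9% of the other T cells of the same sample. In αPD-1 T cells, Fcer2a and Fcmr stood at 2.07 and 2.04% of the B cell level, and the B cell markers Cd79a, Cd79b and Ms4a1 at 2.25%.

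The macrophages formed 8 clusters, each called here by leading genes, and the Fc receptor genes were spread unevenly over them. Since the clusters drew unequally on the samples, levels are given as means over the samples of a group. With αPD-1 alone, Fcgr2b was highest in the Cxcl1/Thbs1 (805 ± 105 CPM), Spp1/Mmp12 (735 ± 49.8) and Lyve1/Fcna (692 ± 111) clusters, followed by the Ccl8/Cd163 (618 ± 64.1) and Ppbp/Arg1 (568 ± 95.6) clusters. It was lower in the Lrmda/Slc8a1 (298.6 ± 82.6 CPM), Ms4a7/C1qc (272 ± 118) and Camk1d/Gphn (160 ± 7.52) clusters (SD, n = 3). With added corin the Ppbp/Arg1 cluster had the highest mean (1122 ± 209 CPM) and the Camk1d/Gphn cluster again the lowest (246 ± 90.8 CPM). Fcgr1 was highest in the Cxcl1/Thbs1 cluster with αPD-1 alone (447 ± 138 CPM) and in the Ppbp/Arg1 cluster with added corin (589 ± 50.1 CPM), and lowest in the Camk1d/Gphn cluster in both groups (136 ± 23.7 and 135 ± 10.2 CPM). Fcgr4 followed another order, with 320 ± 148 CPM in the Ms4a7/C1qc cluster and 103 ± 18.7 CPM in the Spp1/Mmp12 cluster with αPD-1 alone.

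Fcgrt was highest in the Ccl8/Cd163 and Lyve1/Fcna clusters. Its level was 679, 801 and 573 CPM with αPD-1 alone and 624, 511 and 283 CPM with added corin in the Ccl8/Cd163 cluster, and 593, 717 and 580 CPM against 712, 498 and 345 CPM in the Lyve1/Fcna cluster. No other macrophage cluster had a sample above the 236 CPM that the Ppbp/Arg1 cluster reached, and the lowest sample of these clusters (283 CPM) lay above it. The 3 clusters were alike in that each met all 6 markers listed for resident macrophages, such as Folr2. Fcer1g was at 980 to 1635 CPM per sample in the Lrmda/Slc8a1 cluster and at 734 to 1218 CPM in the Camk1d/Gphn cluster, below every sample of the other 6 clusters (2048 to 3657 CPM). Fcgr1 and Fcgr3 also had their lowest group means in these clusters, in both groups. The Lrmda/Slc8a1 cluster had a median of 2390 UMIs per cell, and the other macrophage clusters 3290 to 4958. Camk1d, Gphn, Cmss1, Lars2 and Cdk8 led the Camk1d/Gphn cluster and also an unnamed cluster of 405 cells with T cell markers. The part of depth or RNA quality in these levels was not tested.

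**Figure D2:**
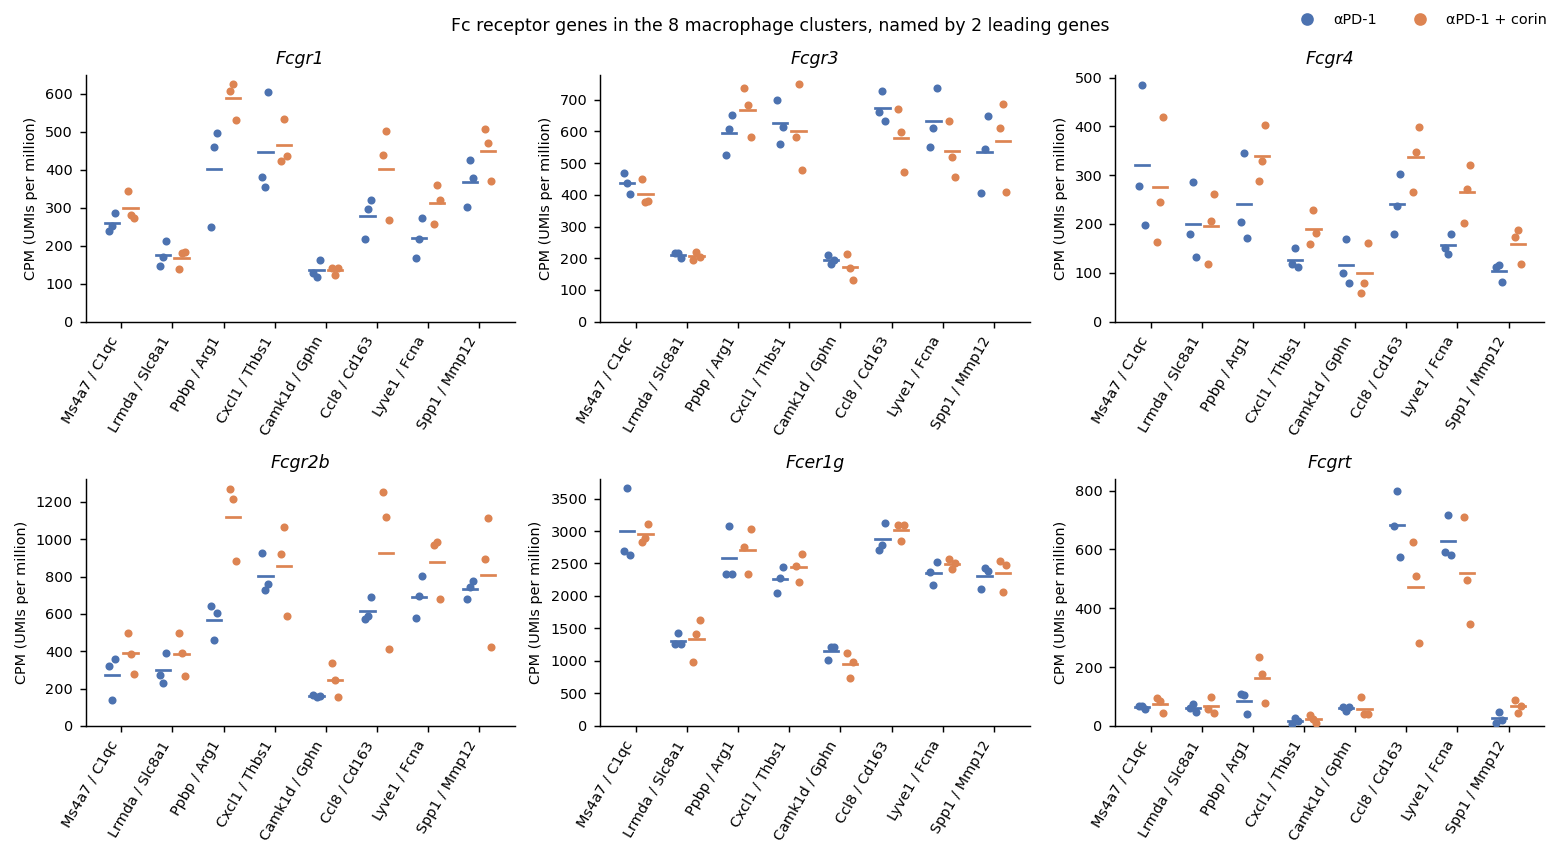
Level in CPM (y axis) of 6 Fc receptor genes in the 8 macrophage clusters (x axis, each named by 2 leading genes). Each point is a sample and each bar the group mean (αPD-1 in blue, αPD-1 + corin in orange). Fcgrt is high in the Ccl8/Cd163 and Lyve1/Fcna clusters, and Fcgr2b separates the groups in the Ppbp/Arg1 cluster, at 460 to 641 CPM against 882 to 1267 CPM.

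The clusters also differed in size between samples. The Ppbp/Arg1 cluster held 2.96, 1.43 and 4.06% of macrophages with αPD-1 alone and 22.7, 20.6 and 1.66% with added corin. The Lrmda/Slc8a1 cluster held 34.2, 34.7 and 30.8% against 2.43, 10.5 and 33.4%. In both, the third αPD-1 + corin sample was within the αPD-1 range.

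The treatment comparison asked whether adding corin to αPD-1 changed these genes. Sums of UMIs per sample and class went into edgeR (quasi-likelihood test), with p-values adjusted over all genes tested in that class by the Benjamini-Hochberg method and a threshold of 0.05. In macrophages none of the 6 genes that these cells express passed it. Fcgr2b was at 417, 312 and 470 CPM with αPD-1 alone and 958, 870 and 324 CPM with added corin, which edgeR fitted as 1.01 ± 0.38 on the log2 scale (SE, adjusted p = 0.246). The first and second αPD-1 + corin samples lay above all αPD-1 samples and the third lay among them. The 7 neutrophil markers in these macrophage sums came to 53, 65.5 and 57.7 CPM with αPD-1 alone and to 734, 947 and 145 CPM with added corin, and without cells holding 2 or more UMIs of T cell, B cell or neutrophil markers Fcgr2b was at 1.00 (adjusted p = 0.241). Fcgr1 had a log2 fold change of 0.70 ± 0.26 (adjusted p = 0.246), with the same arrangement of samples. The values of Fcgrt (0.69 ± 0.40), Fcgr4 (0.46 ± 0.24), Fcgr3 (0.42 ± 0.24) and Fcer1g (0.33 ± 0.16) had adjusted p of 0.321 to 0.399.

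The genes called in macrophages were Fcer2a and Fcmr, 2 of the 8 members, where 0.295% of the 11524 genes tested were called. Fcer2a fell by 3.09 ± 0.44 on the log2 scale (edgeR adjusted p = 0.0404) and Fcmr fell by 3.17 ± 0.46 (adjusted p = 0.0416). These are low levels. Both genes passed the filter on low counts only through the αPD-1 samples, so only a fall could be called. Fcmr was at 14.4, 7.27 and 16.1 CPM against 1.47, 1.57 and 0.364 CPM, and Fcer2a at 9.4, 5.13 and 6.87 CPM against 1.04, 0.313 and 0.546 CPM, so neither overlapped between groups. The 7 B cell markers moved with them: all 7 were detected in each αPD-1 sum of macrophages, at 169 to 296 CPM in all, and 6 or 7 in each αPD-1 + corin sum, at 31 to 42 CPM. When cells with 2 or more UMIs of the markers of another lineage were left out, both genes were too low to be tested in macrophages and none of the members was called, with 1814 genes at an unadjusted p under 0.05 in edgeR and 5 called.

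Without the third αPD-1 + corin sample the macrophage result changed. Fcgr2b then had a log2 fold change of 1.35 (edgeR adjusted p = 0.00156), Fcgr1 of 0.92 (adjusted p = 0.00726), Fcgr3 of 0.65 (adjusted p = 0.00914) and Fcgrt of 1.03 (adjusted p = 0.0123), and with Fcer2a and Fcmr 6 members were called among 2391 genes (20.6% of those tested). That sample was left out because its values stood apart, so these are values of a chosen set of samples. Leaving out any of the other 5 samples left no member called in macrophages. Without the third αPD-1 + corin sample Fcgr2b also passed in dendritic cells (0.75, adjusted p = 0.0349, with 2.43% of genes called) and in T cells (0.98, adjusted p = 0.0151, with 5.8% called). Over all 6 samples, the log2 ratio of the mean CPM was 0.84 for Fcgr2b, -3.50 for Fcer2a and -3.48 for Fcmr.

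When each sample was given the same composition of macrophage clusters (the mean share of UMIs over the 6 samples), the ratios of the group means in macrophages came nearer to 1. For Fcgr2b the ratio went from 1.79 to 1.37, with 458, 386.3 and 500.6 CPM against 746, 698 and 401 CPM. For Fcgr1 it went from 1.45 to 1.2, for Fcgr4 from 1.23 to 1.13 and for Fcer1g from 1.13 to 1.01. For Fcgr3 it went from 1.19 to 0.944 and for Fcgrt from 1.43 to 0.873, which turned the direction of both. The groups overlapped for these 6 genes under either composition.

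Within clusters, Fcgr2b was at 641, 460 and 604 CPM in the αPD-1 samples of the Ppbp/Arg1 cluster and at 1267, 1216 and 882 CPM with added corin, and the groups did not overlap, and Fcgr1 was at 249, 460 and 498 CPM against 609, 626 and 532 CPM, also without overlap. This cluster held only 12 to 29 cells in 4 of the samples. Tested alone, it gave a log2 fold change of 1.05 ± 0.23 for Fcgr2b (edgeR adjusted p = 0.0764) and 0.63 ± 0.26 for Fcgr1 (adjusted p = 0.276), with 0.372% of 1881 genes called and 291 at an unadjusted p under 0.05. In the Camk1d/Gphn cluster Fcgr2b had a log2 fold change of 0.77 ± 0.26 (adjusted p = 0.603), in the Ccl8/Cd163 cluster of 0.74 ± 0.32 (adjusted p = 0.333), in the Ms4a7/C1qc cluster of 0.58 ± 0.32 (adjusted p = 0.725) and in the Cxcl1/Thbs1 cluster of 0.12 ± 0.23 (adjusted p = 0.889). No member was called by edgeR in any of the 8 clusters tested alone.

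The other classes that carry Fcγ receptors gave no call for them. In monocytes the 6 genes tested had log2 fold changes of 0.05 to 0.35, with Fcgr2b at 0.35 ± 0.14 (adjusted p = 0.253) and Fcer1g at 0.05 ± 0.09 (adjusted p = 0.839). In all, 59 of 7617 genes (0.775%) were called in monocytes by edgeR, 1188 had an unadjusted p under 0.05, and DESeq2 called 77 genes and no member. In dendritic cells Fcgr1 was at 96.9, 185 and 135 CPM against 224, 233 and 134 CPM, a log2 fold change of 0.57 ± 0.26 (adjusted p = 0.439), and Fcgrt stood at -0.17 ± 0.13 (adjusted p = 0.662). In NK cells Fcer1g (0.07 ± 0.17, adjusted p = 0.944) and Fcgr3 (0.17 ± 0.34, adjusted p = 0.933) were the members high enough to test, and 0.184% of 3264 genes were called there, with 287 genes at an unadjusted p under 0.05 in edgeR and 2 called by DESeq2.

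Neutrophils could not be tested, since an αPD-1 sample held 9 of them and 10 were required. Fcgr3 was at 279, 165 and 278 CPM in their αPD-1 samples, from 15, 5 and 9 UMIs, and at 489, 599 and 376 CPM in the αPD-1 + corin samples, so the groups did not overlap. Fcer1g was at 1282 to 1914 CPM against 904 to 1774 CPM, with overlap. The 7 B cell markers summed to 855 to 4640 CPM in the αPD-1 neutrophils and to 50.5 to 359 CPM in the αPD-1 + corin neutrophils. The 9 macrophage markers summed to 619 to 2409 CPM and to 321 to 3599 CPM in these. In the neutrophil cluster 36.4% of cells held 2 or more UMIs each of neutrophil and of macrophage markers. The part of either marker list in the Fcgr3 and Fcer1g values was not tested.

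In B cells no member passed the threshold, where 155 of 7791 genes (1.99%) were called by edgeR, 1101 had an unadjusted p under 0.05 and DESeq2 called 156 genes and no member. Fcmr had a log2 fold change of -0.67 ± 0.22 (adjusted p = 0.0852), Fcer2a of -0.51 ± 0.25 (adjusted p = 0.336) and Fcgr2b of -0.12 ± 0.34 (adjusted p = 0.94). Fcer1g, which B cells do not use, was at 145, 72.5 and 138 CPM against 49.3, 58.3 and 0 CPM, at -1.37 ± 0.47 (adjusted p = 0.105). Without the second αPD-1 sample Fcer1g stood at -1.52 (edgeR adjusted p = 0.0389), where 144 of only 1628 genes tested (8.85%) were called. Without cells holding UMIs of another lineage it stood at -0.45 (edgeR adjusted p = 0.835). The αPD-1 + corin samples had 47, 48 and 11 B cells against 702 to 1075, which limits the precision of all these values.

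In dendritic cells 0.337% of genes were called and Fcer2a and Fcmr were among them. Fcmr was at 32.3, 30.1 and 46 CPM against 3.16, 2.26 and 1.58 CPM and fell by 3.81 ± 0.30 on the log2 scale (edgeR adjusted p = 0.00255). Fcer2a fell by 3.69 ± 0.39 (adjusted p = 0.00576), a call that was lost when any αPD-1 sample was left out (adjusted p = 0.0597 to 0.0973). The B cell markers summed to 466 to 642 CPM in the αPD-1 dendritic cells and to 35.2 to 107 CPM in the αPD-1 + corin ones. In T cells 8.95% of genes were called and Fcmr, which fell by 4.33 ± 0.52 (edgeR adjusted p = 0.000447), was among them, at 34, 35 and 16 UMIs in the αPD-1 samples and 0, 2 and 2 UMIs in the αPD-1 + corin samples. Fcer2a had 23, 18 and 8 UMIs in αPD-1 T cells and none in αPD-1 + corin T cells, where a count of 0 allows up to 3 UMIs per sample, and was too low to be tested. The B cell markers summed to 163 to 222 CPM against 12.3 to 66.2 CPM in T cells. Fcer2a and Fcmr in dendritic cells and Fcmr in T cells passed the filter on low counts only through the αPD-1 samples. Only a fall could thus be called for them. Without cells that held UMIs of another lineage, neither gene was high enough to be tested in dendritic cells or T cells.

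**Figure D3:**
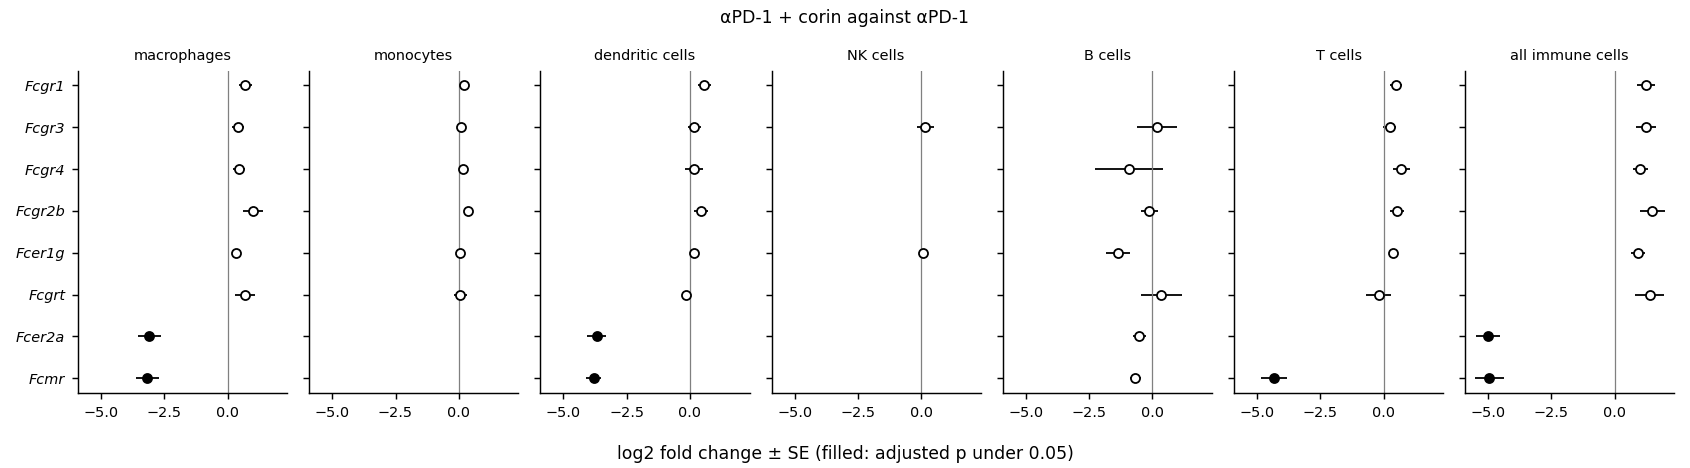
Log2 fold change of αPD-1 + corin against αPD-1 (x axis, point, with its SE as a line) for each Fc receptor gene (y axis) in 6 classes and over all immune cells, from edgeR on sums per sample. Filled points had an adjusted p under 0.05 and missing points were too low to be tested. The calls are of Fcer2a and Fcmr and all lie left of 0, and the points of the other 6 genes in macrophages lie between 0.33 and 1.01 without a call.

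Over all immune cells, where fewer cells of a type and less RNA per cell cannot be told apart, 1804 of 14476 genes (12.5%) were called, 2 of the members among them. Fcer2a fell by 5.00 ± 0.48 (edgeR adjusted p = 0.00746), from 69.2, 73.4 and 75.9 CPM to 2.73, 2.46 and 0.674 CPM. Fcmr fell by 4.95 ± 0.58 (adjusted p = 0.0116), from 122, 114 and 162 CPM to 4.56, 5.43 and 1.12 CPM. This Fcmr call was lost without the first or the third αPD-1 sample, and with the replicate number as a block. The other 6 members had log2 fold changes of 0.92 (Fcer1g) to 1.48 (Fcgr2b) with adjusted p of 0.0644 to 0.137. Of these, Fcer1g was at 896, 1271 and 1015 CPM against 2326, 1630 and 1319 CPM, without overlap, as were Fcgr1 and Fcgr4. The share of all genes without overlap was not counted, and 5310 of the 14476 genes had an unadjusted p under 0.05 in edgeR. DESeq2 called all 8 members where it called 26% of all genes, and edgeR without the third αPD-1 + corin sample called all 8 where it called 36.7%.

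The classes that supplied the UMIs differed between the groups. Macrophages held 46.3 to 59.1% of the UMIs of Fcer1g, the Fcγ receptors and Fcgrt in the αPD-1 group (group means) and 58.4 to 73.1% in the αPD-1 + corin group. Neutrophils held 0.349% of the Fcgr3 UMIs of the αPD-1 samples on average, and with added corin 3.78, 30.5 and 2.43% per sample. B cells held 8.18% of the Fcgr2b UMIs in the αPD-1 group and 0.1% in the αPD-1 + corin group. Of the Fcer2a and Fcmr UMIs of the αPD-1 group, 58.7 and 56.4% were in B cells and 30.7 and 32.6% in the mixed clusters.

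**Figure D4:**
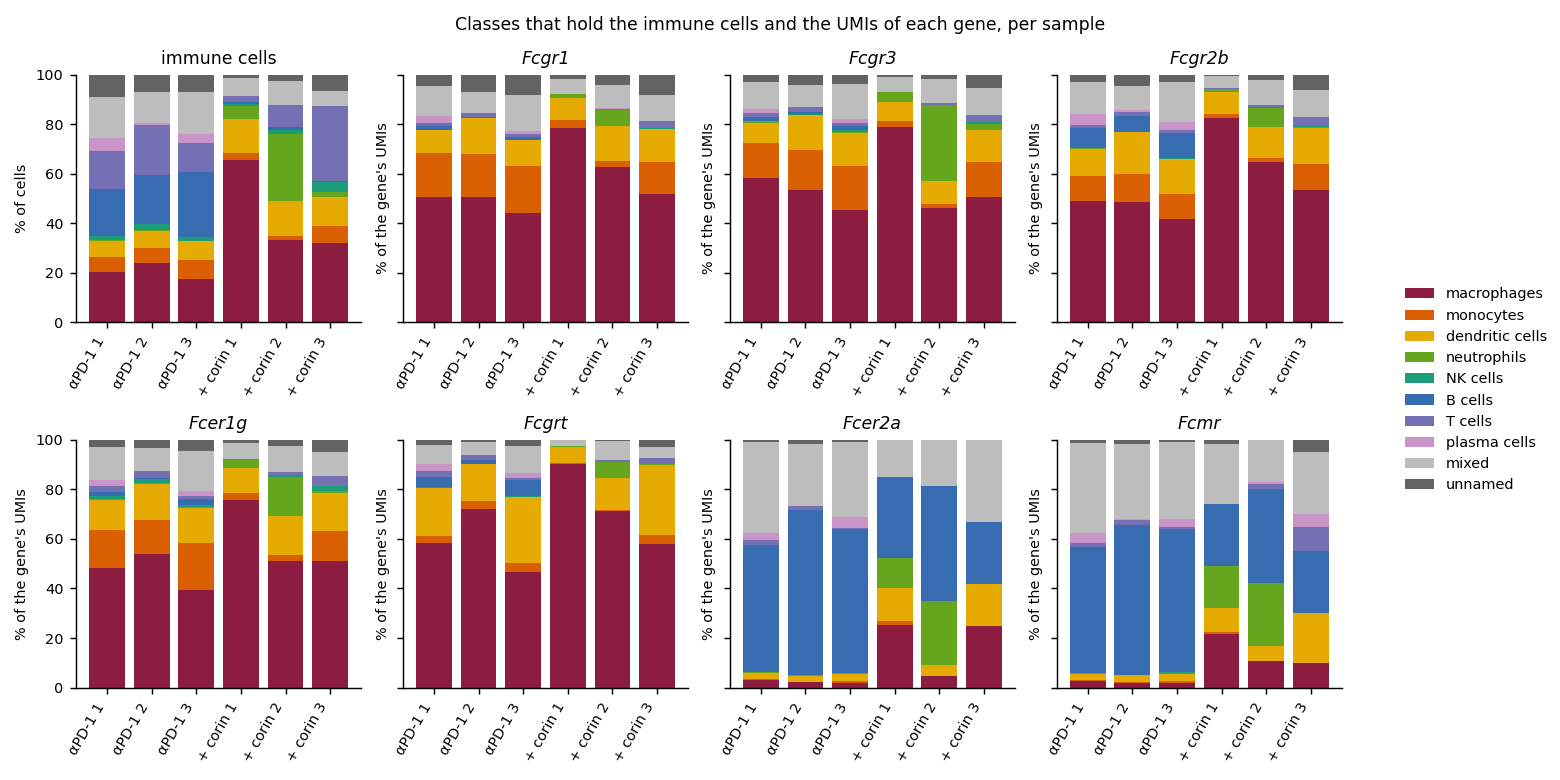
Share of each class (stacked colors, y axis in percent) in the immune cells and in the UMIs of 7 Fc receptor genes, for each of the 6 samples (x axis). Macrophages supply 39.3 to 53.8% of Fcer1g UMIs with αPD-1 alone and 50.9 to 75.7% with added corin, and neutrophils supply 3.78, 30.5 and 2.43% of Fcgr3 UMIs in the αPD-1 + corin samples.

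With the share of UMIs from each class held at its mean over the 6 samples, the ratios of the group means over all immune cells moved towards 1 for each of the 8 members. The ratio for Fcer1g went from 1.66 to 1.21, for Fcgr1 from 2.07 to 1.56, for Fcgr3 from 2.05 to 1.35, for Fcgr4 from 1.77 to 1.32 and for Fcgr2b from 2.42 to 1.75. That for Fcgrt went from 2.26 to 1.35. For Fcer2a it went from 0.0268 to 0.329 and for Fcmr from 0.0279 to 0.28. After this the groups overlapped for the first 6 genes and not for Fcer2a and Fcmr. The mixed clusters entered as 1 class, which held 30.7 and 32.6% of the Fcer2a and Fcmr UMIs of the αPD-1 group. Its cluster led by Cd79a and Fcmr had 497, 278 and 404 cells with αPD-1 alone and 4, 11 and 3 with added corin. Such shifts inside a class were not held fixed.

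The balance of activating to inhibitory receptor UMIs was described without a test. In macrophages the sum of Fcgr1, Fcgr3 and Fcgr4 UMIs was 1.9, 2.9 and 1.86 times that of Fcgr2b in the αPD-1 samples and 1.28, 1.4 and 2.59 times in the αPD-1 + corin samples. The first and second αPD-1 + corin samples were thus lower than any αPD-1 sample and the third was within their range. At 1000 UMIs per cell, 30.6, 23.5 and 33.4% of αPD-1 macrophages had a Fcgr2b UMI against 55.6, 49.7 and 22.6% of αPD-1 + corin macrophages, and 45.9, 46.9 and 50.9% against 65.7, 58.8 and 48.9% had a UMI of an activating receptor. T cells had a Fcgr2b UMI in 0.842 to 1.1% of cells in the αPD-1 group and 1.52 to 3.95% in the αPD-1 + corin group.

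Monocytes had ratios of 2.45 to 3.15 with αPD-1 alone and 2.25 to 2.86 with added corin. Dendritic cells had ratios of 1.37 to 2.28 and 1.26 to 2.4, which overlapped. B cells had 0.24 to 0.33 times as many activating as Fcgr2b UMIs in the αPD-1 samples, and only 5 activating UMIs in all of the αPD-1 + corin samples. Over all immune cells, 18.6, 21.9 and 20.3% of αPD-1 cells and 56.4, 45.1 and 29.2% of αPD-1 + corin cells had a UMI of an activating receptor at 1000 UMIs per cell, with no overlap.

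**Figure D5:**
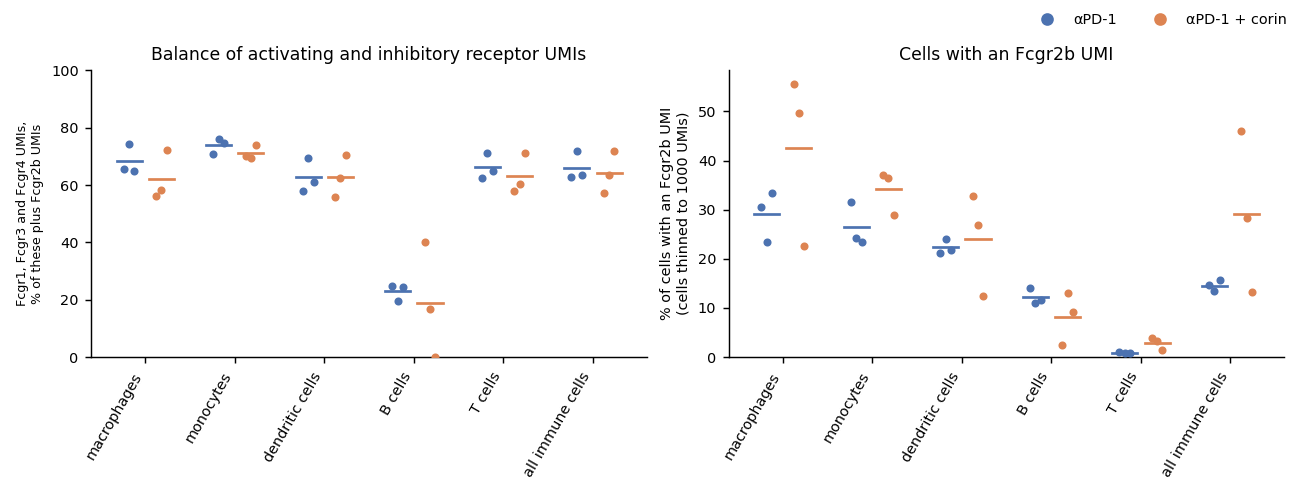
Left, Fcgr1, Fcgr3 and Fcgr4 UMIs as a percent of these plus Fcgr2b UMIs (y axis) in 5 classes and all immune cells (x axis). Right, percent of cells with a Fcgr2b UMI after thinning each cell to 1000 UMIs. Points are samples and bars group means (αPD-1 in blue, αPD-1 + corin in orange), and in macrophages the αPD-1 + corin samples lie at 56.1, 58.4 and 72.1% against 65 to 74.4% in the αPD-1 samples.

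Whether the treatment contrast differed between classes was tested by fitting macrophages with each other tested class in edgeR, with the sample as a block. Among 30 tests of members in 5 pairs of classes, 4 passed the threshold, all between B cells and macrophages, where 1.75% of the genes tested were called. The contrast in B cells was lower than that in macrophages by 1.37 ± 0.38 for Fcgr2b (adjusted p = 0.0228) and by 1.76 ± 0.50 for Fcer1g (adjusted p = 0.0316), and higher by 2.52 ± 0.47 for Fcer2a (adjusted p = 2.84e-05) and by 2.30 ± 0.40 for Fcmr (adjusted p = 4.01e-06). No member was called for monocytes (0.0526% of genes called), dendritic cells (0.0202%), NK cells (0%) or T cells (1.13%) against macrophages, and the smallest adjusted p there was 0.587. The Fcgr2b contrast in dendritic cells was lower than that in macrophages by 0.53 ± 0.22 (adjusted p = 0.587).

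Among other genes of the pathway, only a ligand gene was called in macrophages. None of the 25 genes of ITAM signalling tested, such as the kinase Syk, was called there, with a median log2 fold change of -0.01 beside 0.01 over all genes. No gene was called among the 9 genes of inhibitory signalling (median 0.07), which include the phosphatases that Fcgr2b recruits, the 5 phagocyte oxidase genes (median 0.50), the 3 partner chains (median 0.31) and the 6 other Fc receptor genes that could be tested (median -0.37). The ligand gene Ighm, the heavy chain of IgM, fell by 1.01 ± 0.15 on the log2 scale (adjusted p = 0.0467), beside the fall of the B cell markers given above. In dendritic cells the IgD heavy chain Ighd fell by 3.15 ± 0.31 (adjusted p = 0.00576), and in T cells Ighd fell by 2.60 ± 0.32 (adjusted p = 0.000523) and Ighm fell by 1.17 ± 0.27 (adjusted p = 0.02).

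Other pathway genes were called in lymphocytes. In B cells Syk rose by 0.64 ± 0.18 (edgeR adjusted p = 0.032), while the kinase Tec fell by 1.22 ± 0.32 (adjusted p = 0.0127). The phosphatase Ptpn6, which inhibitory receptors recruit, fell by 1.2 ± 0.31 (adjusted p = 0.0113). These were 2 of 23 ITAM genes and 1 of 7 inhibitory genes tested, where 1.99% of all genes were called in B cells. The medians of these lists were -0.45 and -0.35 beside -0.18 over all genes in B cells. The αPD-1 + corin samples had only 47, 48 and 11 B cells. In T cells the T cell receptor chain Cd247, which can also pair with Fc receptors, fell by 0.67 ± 0.18 (adjusted p = 0.0387), the B cell adaptor Blnk fell by 1.37 ± 0.33 (adjusted p = 0.0235) and the adaptor Lat2 rose by 0.89 ± 0.21 (adjusted p = 0.0212). These were 2 of 23 ITAM genes and 1 of 3 partner chains, where 8.95% of all genes were called in T cells.

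Over all immune cells 3 of the 7 ligand genes tested fell. Ighg2b, the IgG2b heavy chain of plasma cells, was at 492 ± 342 CPM in the αPD-1 group and 0.193 ± 0.235 CPM in the αPD-1 + corin group (adjusted p = 0.00746), Ighd fell by 4.45 ± 0.52 (adjusted p = 0.0116) and Ighm fell by 1.91 ± 0.24 (adjusted p = 0.0138). Of 8 other Fc receptor genes tested, 2 fell. These were the B cell receptor-like gene Fcrl1, which fell by 3.29 ± 0.35 (adjusted p = 0.0095), and Pigr, the transporter of IgA and IgM, which fell by 4.43 ± 0.53 (adjusted p = 0.012) from only 4.41 ± 1.28 CPM. Of the ITAM genes 3 of 25 fell, and of the inhibitory genes 2 of 9 rose, where 12.5% of all genes were called.

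The genes whose levels followed each member most closely were found over 41 sums of a sample and a class with at least 20 cells, among 10416 genes, as Pearson's r of log2(CPM + 10). The sums share libraries and fall into 8 classes, so r mainly measures the likeness of class profiles and carries no p. Fcgr1 was nearest to Ms4a6d and the lysozyme gene Lyz2 (r = 0.978 each) and Sirpa, a phagocyte receptor (0.972). Fcgr3 was nearest to the integrin Itgam (0.968), Lilrb4a (0.955) and Sdcbp (0.948), and Fcgr4 to Sirpa (0.957), Lrrc25 (0.956) and the lysosomal gene Cd68 (0.954). Fcgr2b was nearest to the cathepsin genes Ctss (0.945), Ctsc (0.939) and Ctsh (0.932). Fcer1g was nearest to Tyrobp (0.96), another ITAM adaptor, then Metrnl (0.956) and Anxa1 (0.954). Fcgrt was nearest to the lipid genes Pltp (0.93) and Apoe (0.928) and to C1qb (0.921). Fcer2a and Fcmr were near each other (0.988), with Blk (0.983) and Fcrl1 (0.975) next to Fcer2a, and Ms4a1 (0.99) and Ighd (0.986) next to Fcmr.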

How the data were processed

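Per the labels and the study's methods, the authors used Cell Ranger 8.0 and GRCm39, and they deposited matrices of UMI counts for each cell barcode of 3 αPD-1 and 3 αPD-1 + corin samples. Totals per library ran from 52281400 to 84276700 UMIs. Kept cells had 600 to 4000 detected genes and no more than 10% of UMIs from mitochondrial genes. Scrublet (scanpy 1.11.5) marked no doublets by its own threshold, so the top scores were removed at 0.4% per 1000 barcodes, 2002 in all. Cells were merged without integration, normalized by SCTransform (Seurat 5.3.0, sctransform 0.4.2; 3000 variable genes, less the markers and the members) and clustered on 20 components at resolution 0.8. A cluster took a name when 3 markers were in at least 10% of its cells at 1.5 times the level of other clusters. It stayed unnamed when no marker of that name was among its 10 leading genes and at most 50% of the list counted. It was called mixed when 50% of its cells held 2 UMIs each of markers of T cells and of B cells or macrophages, or of neutrophils and macrophages. For each class the UMIs of a sample were added up, and these sums entered edgeR 4.0.16 (TMM, filterByExpr, quasi-likelihood) where each sample had at least 10 cells (20 for a single macrophage cluster as first planned, and 10 in tests added later). DESeq2 1.42.0 was an alternative. The sums held 19065 to 16378000 UMIs per class and sample, and limits for a count of 0 cover counting error only. On simulated macrophage sums with 11524 genes, 96 of 100 genes changed 4-fold and 69 of 100 changed 2-fold were found, with 12 false among 177 calls. The members and gene lists were chosen with earlier results of these data known. The naming rule, the fixed composition of macrophage clusters and the fits of the difference between classes were chosen after seeing the data. Named genes are all members, up to 5 called pathway genes per class with the largest change, and the 3 genes most like each member. Members in the macrophage clusters, which were found without them, are described with no test of a cluster against the rest.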

Additional observations from a re-analysis of the deposited data

Results flagged for a closer look

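The treatment contrast differed between B cells and macrophages for 4 Fc receptor genes (1.75% of all genes tested were called) by the test of the difference itself (edgeR, both classes in a fit with the sample as a block). The difference in log2 fold change, B cells minus macrophages, was -1.365 for Fcgr2b, -1.76 for Fcer1g, 2.522 for Fcer2a and 2.30 for Fcmr. The αPD-1 + corin B cells were 47, 48 and 11 cells per sample, and their Fcgr2b UMIs were 3, 15 and 4. Fcer2a and Fcmr in macrophages rested on 20 to 55 UMIs per αPD-1 sample and 2 to 24 UMIs per αPD-1 + corin sample, beside B cell markers of 169 to 296 and 31 to 42 CPM. In macrophages both genes passed the filter on low counts only through the αPD-1 samples. Fcer1g in B cells rested on 3, 5 and 0 UMIs in the αPD-1 + corin samples, and its B cell log2 fold change of -1.37 was -0.45 (adjusted p = 0.835) without cells holding UMIs of another lineage.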

How the results depend on the processing

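Each class was refitted under every alternative that could be run, and counts below are of genes called by edgeR unless DESeq2 is named. The counts in the main setting were 34 in macrophages, 59 in monocytes, 34 in dendritic cells, 6 in NK cells, 155 in B cells, 871 in T cells and 1804 over all immune cells, with 2, 0, 2, 0, 0, 1 and 2 members. DESeq2 called 239 genes in macrophages, 107 in dendritic cells, 2 in NK cells, 491 in T cells and 3744 (26%) over all immune cells, there with 8 members. With RLE size factors the NK count was 0. Without a filter on low counts 741 genes (3.38%) were called in macrophages (4 members, with Fcgr2b at an adjusted p of 0.0043 and Fcgr1 at 0.0289). There were 402 (2.47%) in monocytes (1 member), 629 (3.21%) in dendritic cells (4), 37 in NK cells and 1440 (7.48%) in T cells (2). In B cells 179 genes (1.02%) and 1 member were called. With no upper limit on genes the counts were 1 in monocytes, 56 in dendritic cells, 1 in NK cells and 970 over all immune cells. T cells then had 2 members called among 637 genes (6.5%). With a lower limit of 300 genes the counts were 20 in macrophages (0 members), 13 (0.137%) in monocytes (1), 55 in dendritic cells and 0 in NK cells. T cells then had 5 members called among 1037 genes (9.98%). Without doublet removal the counts were 10 in macrophages (0 members), 102 in monocytes, 61 in dendritic cells and 0 in NK cells. B cells then had 1 member among 161 genes (2%) and T cells 2 among 882 (9.1%). With a mitochondrial limit of 5% the NK count was 0 and B cells could not be tested. At resolution 0.4 the counts were 103 in monocytes, 69 in dendritic cells, 0 in NK cells and 98 in B cells. Macrophages then had 1 member among 28 genes (0.243%) and T cells 3 among 938 (9.58%). At resolution 1.2 the counts were 6 in macrophages (0 members), 13 in monocytes, 54 in dendritic cells, 1 in NK cells and 80 in B cells. Without cells holding UMIs of another lineage they were 5 in macrophages, 0 in dendritic cells (809 at an unadjusted p under 0.05) and 13 in NK cells, with 0 members in macrophages, dendritic cells and T cells. Single macrophage clusters gave 2 (Ms4a7/C1qc), 1 (Lrmda/Slc8a1), 18 (Cxcl1/Thbs1) and 7 (Camk1d/Gphn) genes and 0 members, as did the Ccl8/Cd163 cluster (31 genes). The clusters with 10 to 19 cells in their smallest sample, tested after seeing the data, gave 7 (Ppbp/Arg1), 20 (Lyve1/Fcna) and 31 (Spp1/Mmp12) genes and 0 members. Leaving out each replicate in turn gave 0 to 2391 genes in macrophages (0 to 20.6% of genes, 0 to 6 members) and 10 to 415 in monocytes. It gave 1 to 239 in dendritic cells (0.00936 to 2.43%, 1 to 3 members) and 1 to 14 in NK cells. It gave 70 to 144 in B cells (0.732 to 8.85%, 0 to 1) and 291 to 964 in T cells (3.02 to 9.27%, 1 to 2). Over all immune cells it gave 48 to 5498 (0.322 to 36.7%, 1 to 8). The counts in macrophages, monocytes, dendritic cells and all immune cells were highest without the third αPD-1 + corin sample. Without an αPD-1 sample, Fcmr over all immune cells had an adjusted p of 0.0614 (without replicate 1) and 0.0642 (without replicate 3), and Fcer2a in dendritic cells 0.0597 to 0.0973. The cause of these changes was not tested. No member changed sign while called.

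Deviations of same-numbered samples from their group mean correlated at -0.341 to -0.197 in macrophages and at -0.437 to -0.062 over all immune cells. In the other tested classes they ran from -0.334 (dendritic cells) to 0.202 (T cells). With 3 samples per group, these values cannot tell whether the replicate numbers pair the samples. With the number as a replicate block the edgeR count in macrophages was 24 (0.208% of genes, 1 member, with Fcmr at an adjusted p of 0.0862). The counts were 30 in monocytes, 13 in NK cells and 70 in B cells. Over all immune cells the count was 114 (0.788%, 1 member, with Fcmr at 0.0534). Neutrophils could not be tested under any setting.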

Other observations

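A cluster of 371 cells led by the interferon-induced genes Rsad2, Ifit2 and Cxcl10 met 4 monocyte markers and 3 macrophage markers. None of these was among its leading genes, and it stayed unnamed. The cluster was in no comparison of a named class, but its cells counted among all immune cells. Its mean Fcgr1 level was 571 ± 160 CPM in the αPD-1 group and 718 ± 125 CPM in the αPD-1 + corin group (SD, n = 3), where the highest means of a macrophage cluster were 447 and 589 CPM. Fcgr1 there was 423, 550.5 and 740 CPM in the αPD-1 samples and 840, 722 and 590.5 CPM in the αPD-1 + corin samples, with overlap between the groups. Fcgr2b was 330, 447 and 289 CPM against 587, 679 and 480 CPM, without overlap and untested, and Fcgrt was low, at 25.7 CPM pooled.

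In the mixed cluster led by Cd79a and Fcmr, 86.2% of cells held markers of both T and B cells. Its 1197 cells were 497, 278 and 404 from the αPD-1 samples and 4, 11 and 3 from the αPD-1 + corin samples. Fcmr there was 257, 296 and 254 CPM in the αPD-1 samples.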
